A study of Oryza sativa with 6 samples.

Results

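Aminoacyl-tRNA synthetases join each amino acid to the tRNAs that carry it into protein. The genes described here are the 51 of 35018 gene entries whose deposited description holds "tRNA synthetase" or "tRNA ligase". By the description, or by the enzyme number where the description names no amino acid, 8 of them belong to the aromatic amino acids (5 tyrosine, 2 tryptophan and 1 phenylalanine) and 43 make up the others, 3 of them with no amino acid assigned. The sprayed plants (GLY) were the glyphosate-tolerant rice line CA21, given glyphosate at 2 mg ml-1 as seedlings with the third leaf, and the control plants (CK) were CA21 left unsprayed. Leaves of both were taken once all plants of the sensitive line P1003 had died, and 3 libraries were sequenced from each group. CA21 is a line bred from mutagenized rice and crossed with P1003, so both groups share its mutant background, and no other line is analysed here. Nothing states that the 3 libraries of a group came from separate plants, so the tests measure the spread between libraries only.

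Glyphosate blocks the shikimate pathway of plastids, from which phenylalanine, tyrosine and tryptophan are made, and the question asked of these genes was whether the synthetases of those amino acids differed from the rest. Synthetases fall into class I and class II by the fold of their catalytic domain. Plants need them in the cytosol, in plastids and in mitochondria, and many plant synthetases are imported into both organelles from a single nuclear gene.

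The ratio of read coverage to FPKM, which gives the depth to which the FPKM were scaled, was 3.84 to 4.40 Gb in the GLY libraries and 3.43 to 3.80 Gb in the CK libraries. This is not the sequencing yield, which the study lists as larger and as higher in CK than in GLY, and the gap was not tested. The values are FPKM, fragments of a gene scaled to its length and to all mapped fragments, so levels can be compared between genes, and fold changes are differences of log2(FPKM + 1), which are smaller than the true log2 ratio where FPKM is low. Of 20 leaf entries (chlorophyll a/b binding proteins and the Rubisco small subunit), 19 had a mean above 1 FPKM, while none of 8 seed storage and none of 2 pollen allergen entries did. The leaf entries summed to 28842 to 40558 FPKM in GLY and 48625 to 53723 FPKM in CK, and the part of this shift in the results below was not tested. In leaf RNA, fewer cells of a type and less RNA per cell cannot be told apart.

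Of the 51 genes, 45 had a mean of at least 0.5 FPKM and were tested. The 6 under this minimum were LOC_Os02g09100 and LOC_Os02g09120 (isoleucine), LOC_Os05g15150 (leucine), and LOC_Os02g49030, LOC_Os04g58400 and LOC_Os08g09260 (tyrosine), none of which exceeded 0.362 FPKM in any library. Mean levels of the tested genes lay between 1.02 and 68.8 FPKM, with a median of 6.77 FPKM. After glyphosate 11 of the 45 rose and 1 fell at an adjusted p under 0.05, which is 26.7% of them. Over all 19316 gene entries tested 24.9% passed, 19.3% higher and 5.65% lower in GLY, so the share of synthetase genes was near that of all genes. Without any 1 of the 6 libraries 4 to 7 rose and 1 to 2 fell. Their median log2 fold change was 0.19, against 0.20 over all entries tested, and 22 of the 45 lay above the median of all entries.

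The changes were small. In 44 of the 45 genes the absolute log2 fold change was under 1, and 1 gene, LOC_Os01g16520, passed the fold threshold of 1 with P under 0.05, which 8.98% of all entries passed (6.58% higher and 2.4% lower in GLY). The 3 GLY libraries were all above the 3 CK libraries in 16 genes and all below them in 6, which together is 48.9%, against 44.9% of all entries tested (34.3% above and 10.6% below). The summed FPKM of all 51 genes was 429, 453 and 413 in GLY1, GLY2 and GLY3, against 427, 408 and 381 in CK1, CK2 and CK3. The sums overlapped between the groups, with a ratio of means of 1.07.

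None of the 5 tested synthetase genes of aromatic amino acids passed the test in limma, while 1 of them had an unadjusted p under 0.05, and the count without moderation of variances was also 0 (1 unadjusted). Their log2 fold changes lay between -0.30 and 0.09 with a median of 0.02, and all 5 lay below the median of all entries. The 0 of 5 stands beside 24.9% of all entries, and no test of the difference was made.

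LOC_Os12g34860, the phenylalanine gene (chromosome 12, 21220797 to 21226234, as in the deposited table), is described as phenylalanyl-tRNA synthetase and had the highest level of the aromatic group. It was at 12.7, 14.0 and 13.8 FPKM in GLY1, GLY2 and GLY3, against 18.1, 16.6 and 12.2 FPKM in CK1, CK2 and CK3. CK3 was below all GLY libraries and the other CK libraries above them, so the groups overlapped. The log2 fold change was -0.18 with an SE of 0.156 (95% interval -0.57 to 0.20, adjusted p = 0.436). Its GO terms name an organelle. The 3′ end of the gene overlaps LOC_Os12g34870 on the other strand, which did not pass (log2 fold change 0.19, adjusted p = 0.284).

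Both tryptophan genes attach tryptophan to its tRNA and were expressed at similar levels. LOC_Os01g54020 (chromosome 1, 31070030 to 31076290) was at 6.09, 5.86 and 6.94 FPKM in GLY, against 8.26, 7.27 and 8.46 FPKM in CK. All GLY libraries were below all CK libraries, and this was the single aromatic gene whose groups did not overlap. Its log2 fold change was -0.30 with an SE of 0.105 (95% interval -0.56 to -0.04), and the adjusted p of 0.0880 missed the threshold. Its 3′ end overlaps LOC_Os01g54010 on the other strand, a peptidase gene that rose by 0.77 (adjusted p = 0.00680), and since no source says that fragments were counted by strand, those of the overlap cannot be assigned. LOC_Os12g35570 (chromosome 12, 21625447 to 21629707) was at 8.30, 7.69 and 7.59 FPKM in GLY, against 8.09, 7.97 and 6.94 FPKM in CK, and its groups overlapped. The log2 fold change was 0.03 (95% interval -0.20 to 0.27, adjusted p = 0.828).

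Of the 5 tyrosine genes 2 were expressed above the minimum, both on chromosome 8. LOC_Os08g05490 (2924193 to 2928513) was at 3.22, 4.41 and 2.89 FPKM in GLY, against 3.12, 3.61 and 3.50 FPKM in CK. GLY2 was the highest and GLY3 the lowest of all 6 libraries, and the log2 fold change was 0.02 (95% interval -0.35 to 0.38, adjusted p = 0.946). LOC_Os08g23110 (13919922 to 13925717) was at 3.63, 3.52 and 4.69 FPKM in GLY, against 3.03, 4.32 and 3.61 FPKM in CK. These groups overlapped as well, with a log2 fold change of 0.09 (95% interval -0.28 to 0.46, adjusted p = 0.701).

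**Figure D1:**
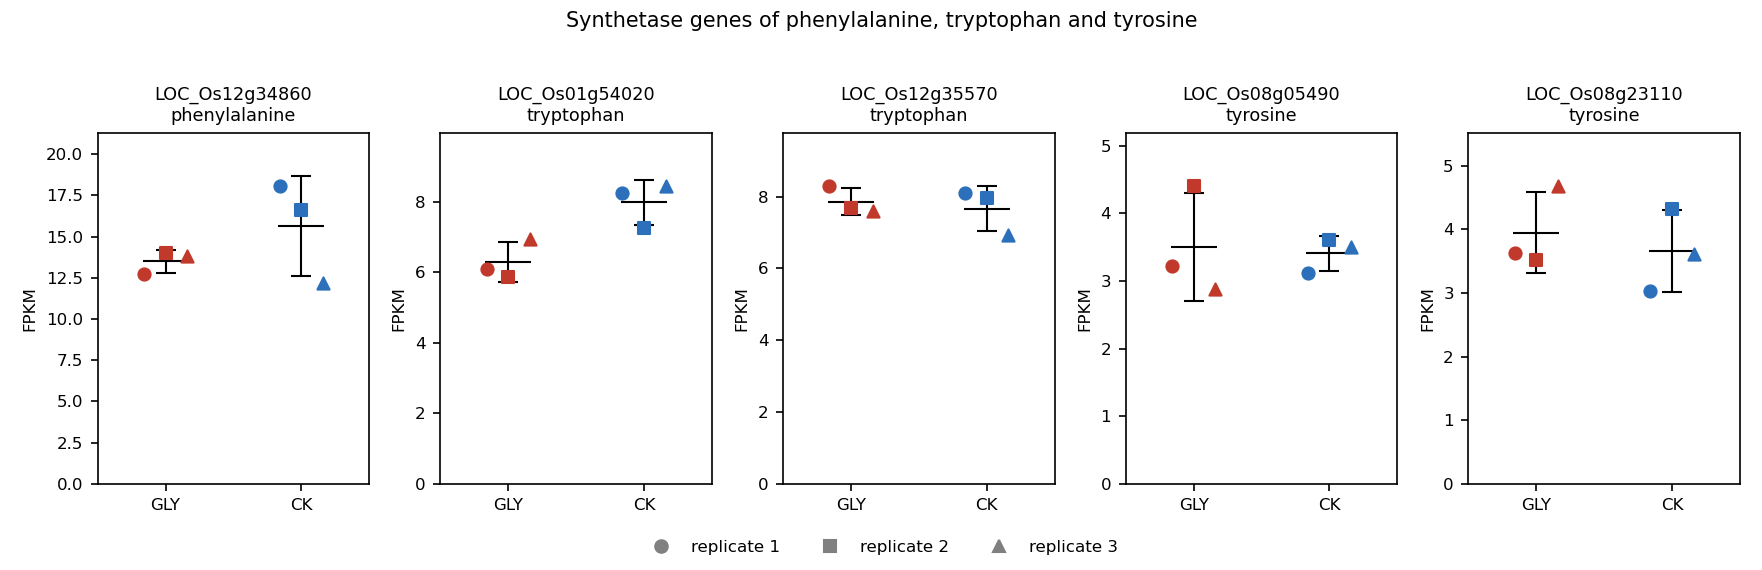
FPKM (y axis, from 0) of the 5 tested synthetase genes of aromatic amino acids in the GLY and CK libraries. Points are libraries, the long bar is the mean and the error bar the SD of 3 libraries. In LOC_Os01g54020 alone do all GLY points (5.86 to 6.94 FPKM) lie below all CK points (7.27 to 8.46 FPKM).

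Of the 40 other tested genes 11 rose and 1 fell, which is 30%, beside 24.9% of all entries tested. Their median log2 fold change was 0.26, against 0.20 over all entries tested. The 40 include the 3 genes with no amino acid assigned, of which 2 rose. The median of the aromatic genes was lower than that of the others by 0.24 on the log2 scale. Taken per library, as the median of log2(FPKM + 1) minus the CK mean of each gene, the aromatic genes differed from the others by -0.27, -0.30 and -0.34 in GLY1, GLY2 and GLY3, and by -0.01, 0.03 and 0.05 in CK1, CK2 and CK3. The 3 GLY values were below all CK values. The CK mean of each gene was subtracted first, so the CK values are centred by construction. The GLY values restate the difference of the medians and are no separate support for it. The 2 lists differ in size, 5 genes against 40, and were compared by counts and medians without a test. With the library-size covariate of Ballgown, which has a correlation of 0.988 with the treatment, the difference was 0.16, and the medians were -0.19 for the aromatic genes and -0.35 for the others.

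**Figure D2:**
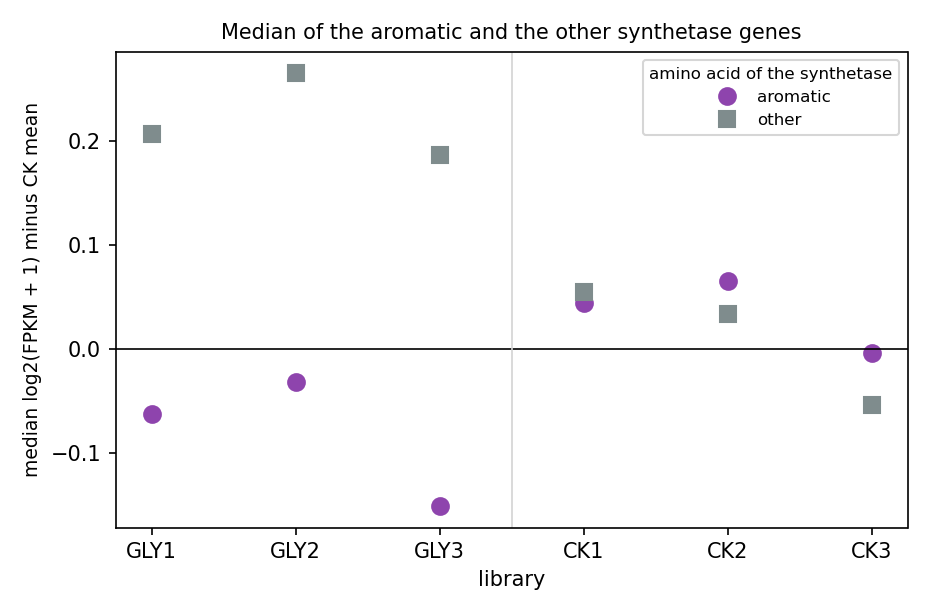
Median over the 5 aromatic (circles) and the 40 other (squares) synthetase genes of log2(FPKM + 1) minus the CK mean of each gene (y axis), by library (x axis). In the GLY libraries the aromatic medians lie between -0.15 and -0.03 and the others between 0.19 and 0.27.

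The largest rise was that of LOC_Os02g53770, the expressed isoleucine gene (chromosome 2, 32934144 to 32945156), which is described only as a class I synthetase. It was at 24.9, 25.1 and 27.1 FPKM in GLY, against 14.7, 14.7 and 13.9 FPKM in CK, a ratio of 1.78. The lowest GLY library was above the highest CK library. The log2 fold change was 0.79 with an SE of 0.0803 (adjusted p = 0.00273), or 0.59 above the median of all entries.

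Both glycine genes with a level under 10 FPKM rose, and the third did not pass. LOC_Os06g01400 (chromosome 6, 233787 to 244624) is described as glycyl-tRNA synthetase 2 with a chloroplast or mitochondrial precursor. It was at 7.10, 7.03 and 6.89 FPKM in GLY, against 4.36, 4.15 and 4.27 FPKM in CK, with a log2 fold change of 0.61 (SE 0.0780, adjusted p = 0.00491). LOC_Os08g42560 (chromosome 8, 26900336 to 26904634) was at 5.11, 5.53 and 4.86 FPKM in GLY, against 2.93, 3.08 and 3.29 FPKM in CK, with a log2 fold change of 0.59 (SE 0.0914, adjusted p = 0.00863). In both genes every GLY library lay above every CK library. LOC_Os04g32650, the most highly expressed glycine gene, was at 33.3, 37.4 and 25.8 FPKM in GLY, against 41.4, 25.9 and 39.8 FPKM in CK. These values overlapped, with a log2 fold change of -0.13 (SE 0.226, adjusted p = 0.704).

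The alanine genes included LOC_Os06g13660, which had the highest level of all 51 genes and carries an organelle term. It was at 76.1, 78.6 and 72.7 FPKM in GLY, against 64.6, 61.1 and 60.0 FPKM in CK. The groups did not overlap, and its log2 fold change of 0.29 (SE 0.0757, adjusted p = 0.0415) was the smallest among the 11 rises and became -0.01 with median-of-ratios factors and -0.18 with the library-size covariate. LOC_Os01g03030 was at 10.1, 11.4 and 10.5 FPKM in GLY, against 8.27, 6.24 and 5.72 FPKM in CK, with a log2 fold change of 0.60 (SE 0.144, adjusted p = 0.0312) that was -1.20 with the library-size covariate. This entry merges the loci LOC_Os01g03020, described as a class I synthetase, and LOC_Os01g03030, described as alanyl-tRNA synthetase, so its rise cannot be given to the alanine gene. The annotated transcript LOC_Os01g03030.1 was at 0.175, 0.0570 and 0.243 FPKM in GLY, against 0.107, 1.79 and 0.940 FPKM in CK (log2 fold change -0.65, adjusted p = 0.353). The new transcripts MSTRG.140.2 and MSTRG.140.1, assigned to LOC_Os01g03020, had log2 fold changes of 1.72 and 1.33 and did not pass (adjusted p = 0.113 and 0.242). The annotated transcript LOC_Os01g03020.1 of that locus went the other way (log2 fold change -2.06, adjusted p = 0.238). It was at 0, 0.184 and 0 FPKM in GLY, against 0, 8.22 and 8.32 FPKM in CK. The rise can therefore not be given to LOC_Os01g03020 either. Without LOC_Os01g03030, called the merged entry below, 10 of 44 synthetase genes rose and 1 fell. The entries LOC_Os09g32650 (leucine) and LOC_Os09g38420 (cysteine) also merge 2 loci each and stayed in that count, and neither passed (adjusted p = 0.214 and 0.196).

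Of the 3 valine genes 2 rose. LOC_Os07g06940 was at 7.22, 7.66 and 6.52 FPKM in GLY, against 4.84, 5.13 and 4.41 FPKM in CK (log2 fold change 0.49, SE 0.101, adjusted p = 0.0202). LOC_Os03g02100, which carries an organelle term, was at 2.67, 2.80 and 2.40 FPKM in GLY, against 1.76, 1.74 and 1.67 FPKM in CK (log2 fold change 0.41, SE 0.0929, adjusted p = 0.0269). In both, all GLY libraries were above all CK libraries. LOC_Os03g02100 overlaps LOC_Os03g02090 on the other strand, which also rose by 0.63 (adjusted p = 0.0171). The third valine gene, LOC_Os03g48850, had overlapping groups and a log2 fold change of 0.16 (adjusted p = 0.397).

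LOC_Os07g07060, the prolyl-tRNA synthetase gene, was at 6.61, 6.19 and 6.70 FPKM in GLY, against 4.70, 4.16 and 4.09 FPKM in CK. The groups did not overlap, and the log2 fold change was 0.50 (SE 0.0911, adjusted p = 0.0140). Its 3′ part overlaps LOC_Os07g07070 on the other strand, which is described as anthranilate phosphoribosyltransferase, an enzyme of tryptophan synthesis. That neighbour was at 1.96, 1.97 and 3.18 FPKM in GLY, against 1.11, 1.01 and 1.42 FPKM in CK (log2 fold change 0.61, adjusted p = 0.0529). LOC_Os07g09580, described as an aminoacyl-tRNA synthetase with no amino acid given, was at 5.06, 5.32 and 4.56 FPKM in GLY, against 3.54, 3.29 and 3.32 FPKM in CK. Its log2 fold change was 0.45 (SE 0.0919, adjusted p = 0.0202) and -0.03 with the library-size covariate. The other 2 genes that rose were LOC_Os03g58820, also without an amino acid (0.40, adjusted p = 0.0317), and LOC_Os07g30200, an asparagine gene (0.35, adjusted p = 0.0308).

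**Figure D3:**
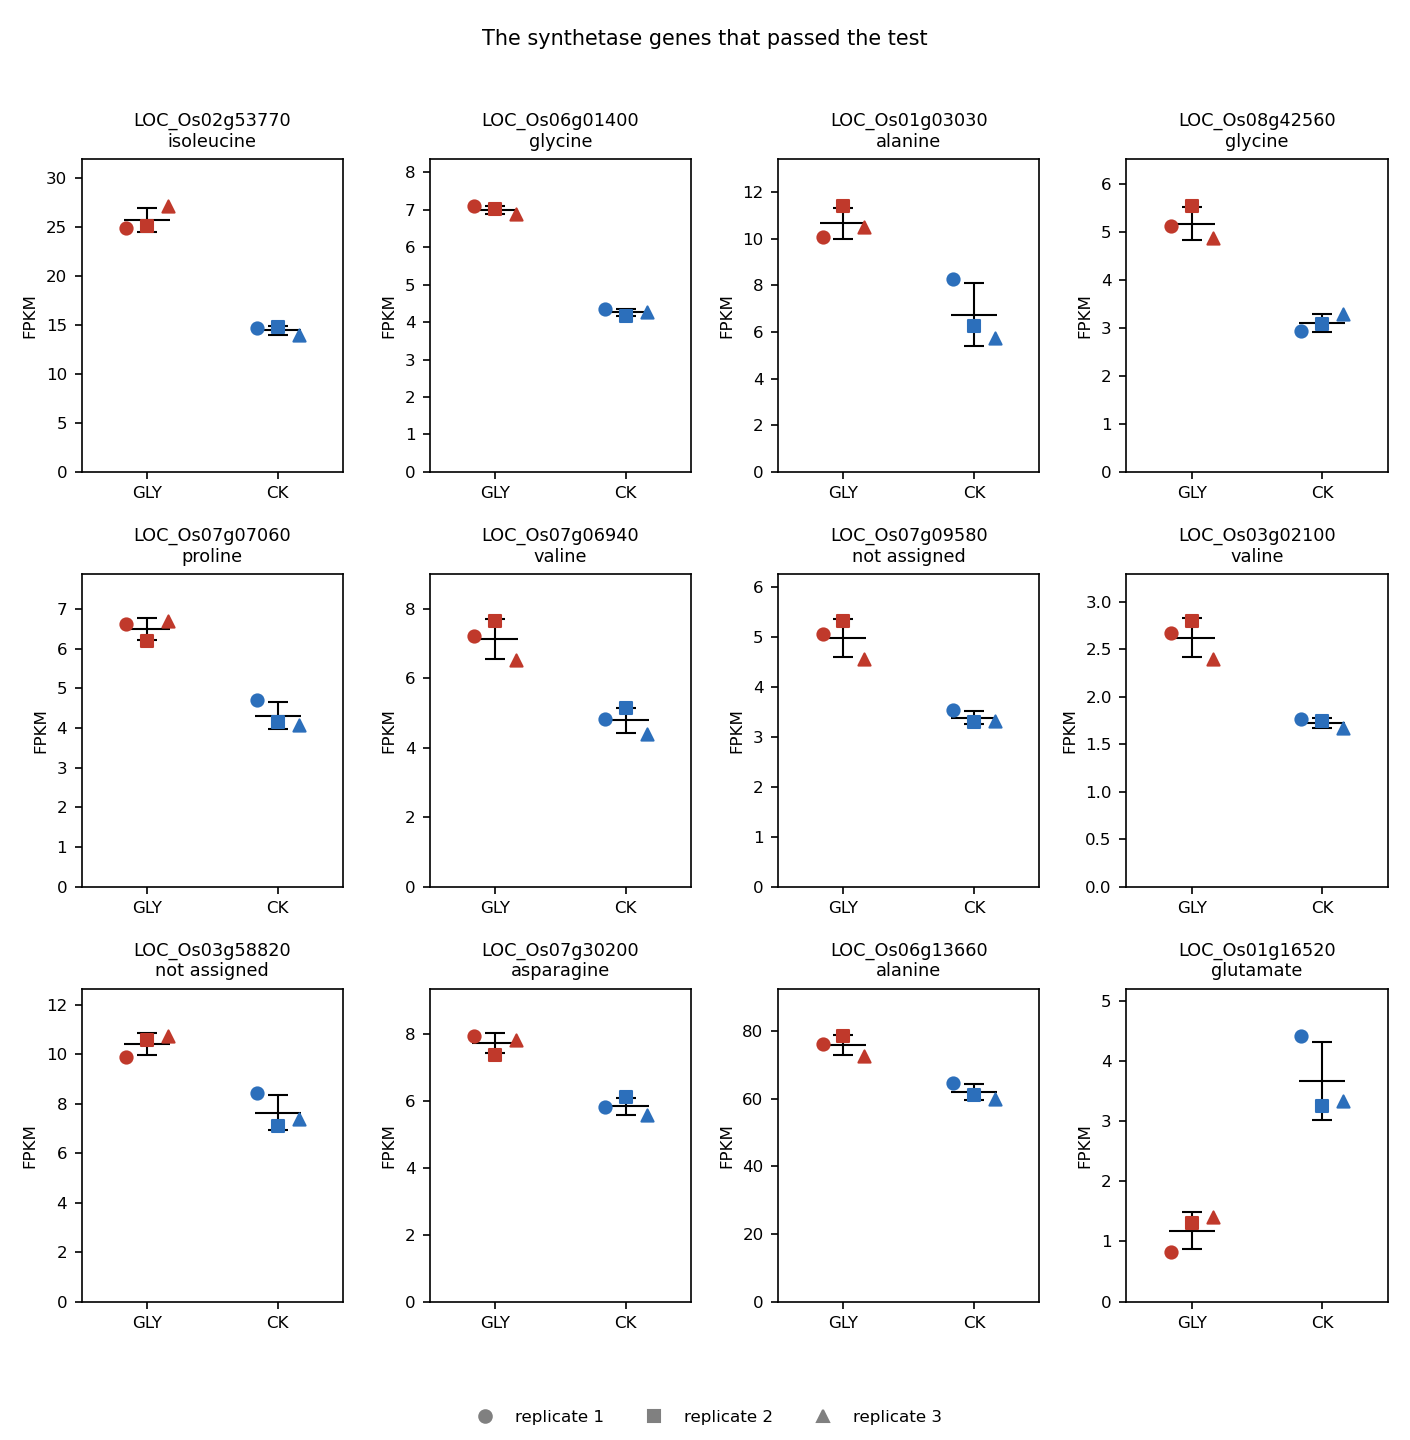
FPKM (y axis, from 0) of the 11 synthetase genes that rose and, last, the 1 that fell, in the GLY and CK libraries. Points are libraries, the long bar is the mean and the error bar the SD of 3 libraries. The groups overlap in none of the 12 panels, and LOC_Os01g16520 is the panel where GLY (0.828 to 1.41 FPKM) lies below CK (3.25 to 4.43 FPKM).

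The gene that fell, LOC_Os01g16520 (chromosome 1, 9373716 to 9378204), is described as a cytoplasmic glutamyl-tRNA synthetase, although its GO terms also name an organelle. It was at 0.828, 1.31 and 1.41 FPKM in GLY, against 4.43, 3.25 and 3.34 FPKM in CK, a ratio of 0.321. All GLY libraries were below all CK libraries. The log2 fold change was -1.10 (SE 0.162, adjusted p = 0.00729), the largest in size among all 45 genes, and without 1 library it lay between -1.18 and -0.98, so that leaving out GLY1 or CK1 took it under the fold threshold. With the library-size covariate, in an ordinary linear model without moderation, it was -2.83 with an adjusted p of 0.730. Its 3′ end overlaps LOC_Os01g16510 on the other strand, which rose by 0.68 (adjusted p = 0.0405).

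The other genes that charge tRNAs with glutamate did not pass. LOC_Os10g22380, also described as cytoplasmic, was at 5.45, 7.80 and 6.81 FPKM in GLY, against 5.41, 5.17 and 5.41 FPKM in CK (log2 fold change 0.27, adjusted p = 0.198). LOC_Os02g02860 had a log2 fold change of -0.32 (adjusted p = 0.254), and the bifunctional glutamate and proline gene LOC_Os12g25710 one of 0.25 (adjusted p = 0.271). The log2 ratio of LOC_Os01g16520 to LOC_Os10g22380 within a library was -2.72, -2.58 and -2.28 in GLY, against -0.29, -0.67 and -0.70 in CK. The ratios did not overlap (exact permutation p = 0.1, the smallest that 3 libraries against 3 allow, and 0.2 after adjustment over the 4 pairs compared). All GLY libraries lay below all CK libraries in LOC_Os01g16520 and above them in LOC_Os10g22380. The pair was chosen with these values seen, so the lack of overlap was fixed by the choice and is no separate support.

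The asparagine genes went in different directions. LOC_Os01g27520, with the third highest level of all synthetase genes, was at 18.0, 29.2 and 27.2 FPKM in GLY, against 39.7, 43.4 and 36.4 FPKM in CK. All GLY libraries were below all CK libraries, GLY1 the furthest, and the log2 fold change of -0.68 (SE 0.194) had an adjusted p of 0.0517, which missed the threshold. LOC_Os12g22600, with an organelle term and a low level, was at 0.590, 0.926 and 0.447 FPKM in GLY, against 1.79, 1.36 and 1.0 FPKM in CK (log2 fold change -0.52, adjusted p = 0.0906). LOC_Os07g30200, which rose, was at 7.94, 7.38 and 7.82 FPKM in GLY, against 5.80, 6.11 and 5.58 FPKM in CK. The log2 ratio of LOC_Os01g27520 to LOC_Os07g30200 was 1.18, 1.98 and 1.80 in GLY, against 2.77, 2.83 and 2.70 in CK, again without overlap (exact permutation p = 0.1, adjusted p = 0.2). For the other pairs compared, the tryptophan genes (exact permutation p = 0.2) and the tyrosine genes (exact permutation p = 0.8), the ratios overlapped. The pairs of glutamate and asparagine genes were chosen after their values were seen. In each pair all GLY libraries were below CK in the first gene and above it in the second, so the ratios had to separate.

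Summed by amino acid, the FPKM of all GLY libraries was above that of all CK libraries for isoleucine (25.0, 25.2 and 27.7 in GLY, against 14.9, 15.1 and 14.3 in CK), alanine, valine, proline and arginine. The ratios of means for the last 4 were 1.26 (1.22 without the merged entry), 1.32, 1.51 and 1.31. Proline and arginine are 1 gene each, and the arginine gene LOC_Os05g07030 did not pass (log2 fold change 0.36, adjusted p = 0.101). The bifunctional glutamate and proline gene, whose groups overlapped, is not in the proline sum. Over all single entries tested, all GLY libraries were above all CK libraries in 34.3% and below them in 10.6%. For asparagine the sum was 26.6, 37.5 and 35.5 FPKM in GLY, against 47.3, 50.8 and 43.0 FPKM in CK, and for tryptophan 14.4, 13.6 and 14.5 FPKM in GLY, against 16.4, 15.2 and 15.4 FPKM in CK. These were the sums in which all GLY libraries were below all CK libraries. The 8 aromatic genes summed to 34.1, 35.8 and 36.0 FPKM in GLY, against 40.8, 40.0 and 34.7 FPKM in CK, with overlap. A sum is led by its most highly expressed gene.

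**Figure D4:**
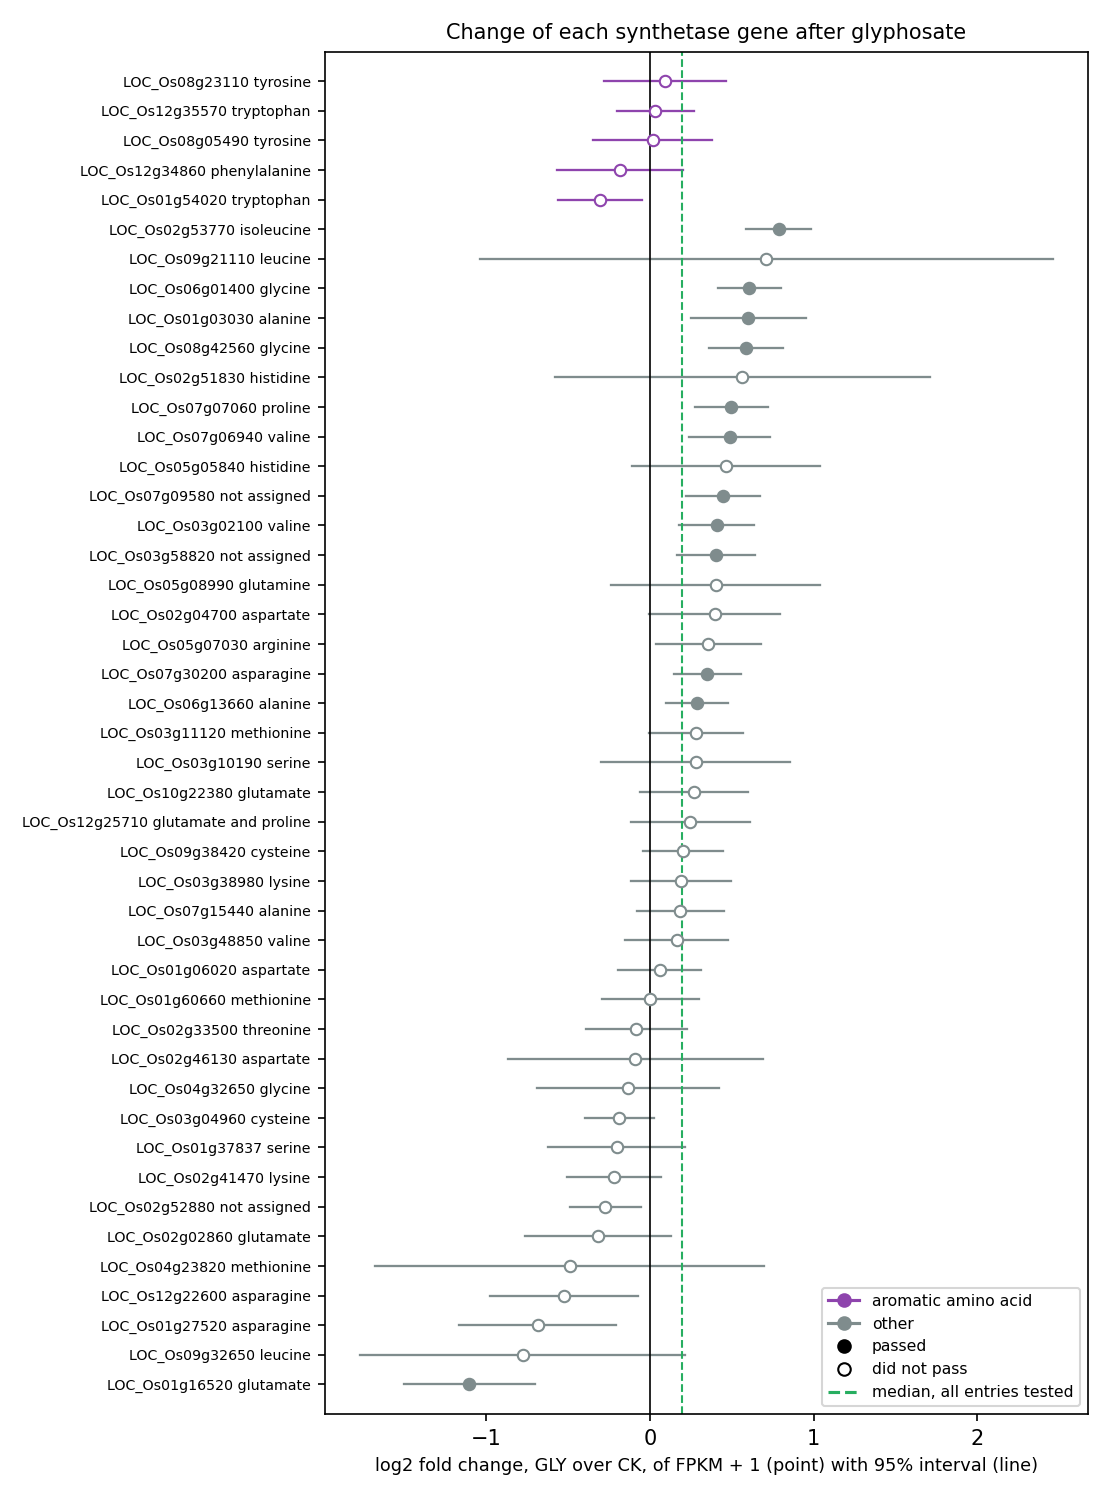
Log2 fold change, GLY over CK, of log2(FPKM + 1) (x axis) for the 45 tested synthetase genes (rows), aromatic on top and others below, each with its 95% interval. Filled points passed the test, and the dashed line is the median of all entries tested at 0.20. The 5 aromatic points lie left of that line, and the others run between -1.10 and 0.79.

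By enzyme class, 3 of 20 class I genes rose and 1 fell, and 6 of 21 class II genes rose (5 of 20 without the merged entry), so that 20% and 28.6% passed, beside 24.9% of all entries. No class II gene fell in limma (2 had an unadjusted p under 0.05 in that direction, and the count without moderation was also 0). By the GO terms, 5 of the 13 genes with a plastid or mitochondrial term rose and 1 fell, which is 46.2%. Of the 29 with a cytoplasmic term alone 4 rose, or 13.8% (3 of 28, or 10.7%, without the merged entry). The gene that fell, LOC_Os01g16520, and LOC_Os10g22380 are described as cytoplasmic but counted with the organelle terms. The difference between the sets was not tested. The medians of these 2 sets were 0.19 each. Of the 28 tested genes that stand alone, with no overlapping entry and no merged locus, 6 rose, or 21.4%.

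In 4 genes 1 library stood more than 1 unit of log2(FPKM + 1) from both others of its group. LOC_Os09g21110, a leucine gene, was at 4.45, 4.91 and 4.88 FPKM in GLY, against 5.13, 5.51 and 0.0811 FPKM in CK, where CK3 was near 0. Its log2 fold change was 0.71 with all libraries and -0.14 without CK3. LOC_Os02g51830, a histidine gene, was at 22.6, 22.8 and 12.3 FPKM in GLY, against 5.81, 17.0 and 17.8 FPKM in CK, and its log2 fold change of 0.57 became 0.09 without CK1. CK1 was the low library of this gene. LOC_Os04g23820, a methionine gene, was at 6.42, 5.94 and 4.31 FPKM in GLY, against 18.5, 5.63 and 4.82 FPKM in CK, and its log2 fold change of -0.49 became 0.06 without CK1. The leucine entry LOC_Os09g32650, which merges 2 loci, was at 2.54, 2.43 and 1.84 FPKM in GLY, against 3.84, 9.33 and 2.47 FPKM in CK (log2 fold change -0.78, and -0.33 without CK2). None of the 4 passed the test with or without the library (adjusted p between 0.214 and 0.863).

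The 51 genes had 119 transcripts, 83 of them annotated and 36 newly assembled. Of these 88 reached the minimum of 0.5 FPKM and 2 passed, the single transcript of LOC_Os02g53770 higher (adjusted p = 0.0224) and that of LOC_Os01g16520 lower (adjusted p = 0.0338) in GLY. This is 2.27%, against 6.19% of the 32646 transcripts tested. The 2 transcripts that passed belong to genes with a single transcript. None of the 20 genes with at least 2 tested transcripts had a transcript that passed. Whether their transcripts moved in opposite directions can therefore not be read from these calls. In LOC_Os06g13660 the most abundant transcript, a new one, was at 60.2, 54.3 and 52.4 FPKM in GLY, against 47.0, 28.0 and 42.7 FPKM in CK, with all GLY libraries above all CK libraries (log2 fold change 0.52, adjusted p = 0.221). Its other transcripts did not share this rise. The new MSTRG.20125.2 had a log2 fold change of 0.03 (adjusted p = 0.959) and the annotated LOC_Os06g13660.1 one of -0.64 (adjusted p = 0.309). In LOC_Os01g54020 the annotated transcripts were at 0.681 FPKM at most and the value of the gene came from 3 new ones.

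The FPKM of all entries were shifted between the groups, and this bears on the direction of the synthetase genes. With median-of-ratios factors the median log2 fold change of all entries was -0.02 in place of 0.20, and the share of passing entries that were higher in GLY was 49.4% in place of 77.3%. On that scale 3 synthetase genes rose and 7 fell, against 11 and 1 as deposited. These 10 are 22.2% of the 45, beside 20.2% of all entries on that scale (9.98% higher and 10.2% lower in GLY). The 3 that rose were LOC_Os02g53770 (0.50), LOC_Os06g01400 (0.35) and LOC_Os08g42560 (0.35), all among the 11. LOC_Os01g16520 fell by 1.29 on the log2 scale, followed by LOC_Os01g27520 (-0.98, adjusted p = 0.0183), LOC_Os12g22600 (-0.66), the tryptophan gene LOC_Os01g54020 (-0.56, adjusted p = 0.0191), LOC_Os02g52880 of the ybaK family (-0.53), the lysine gene LOC_Os02g41470 (-0.48) and the cysteine gene LOC_Os03g04960 (-0.46). All 5 aromatic genes were below 0 on that scale, between -0.56 and -0.15, and 10 of the 11 that rose as deposited were above 0. The difference of the medians, aromatic minus other, was -0.23 there, close to the -0.24 as deposited.

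**Figure D5:**
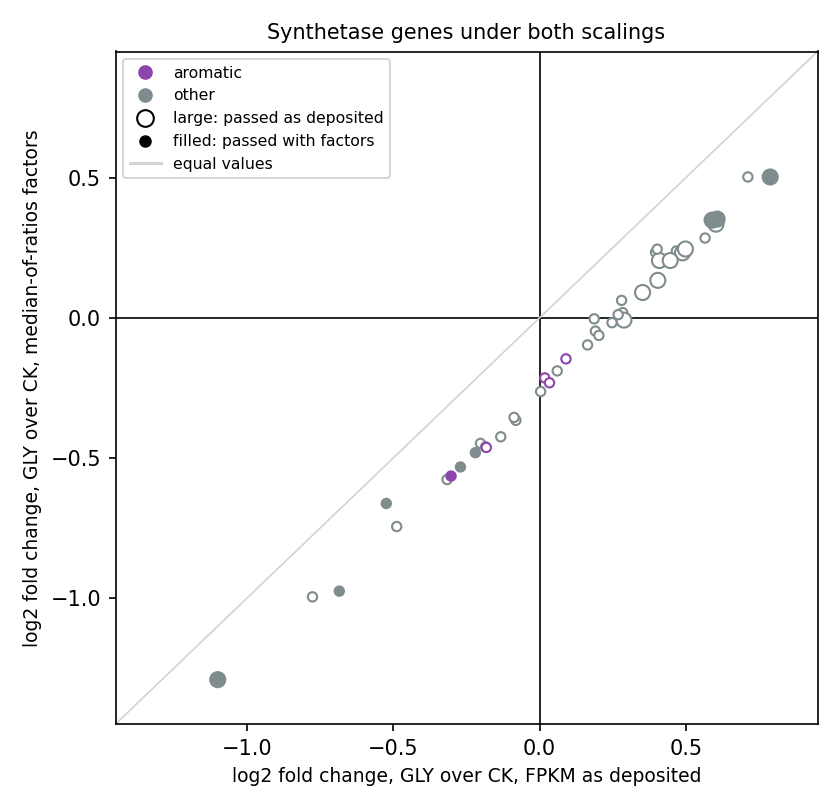
Log2 fold change, GLY over CK, of the 45 synthetase genes with FPKM as deposited (x axis) and with median-of-ratios factors (y axis). Large points passed as deposited and filled points passed with the factors. All points lie under the line of equal values, and the 4 large filled points passed on both scales, the 3 that rose on the right and LOC_Os01g16520 (-1.10 and -1.29) at the lower left.

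Genes that act beside the synthetases were taken from their descriptions (tRNA-dependent amidotransferases, which make some charged tRNAs by a second route, peptidyl-tRNA hydrolases, which free tRNAs from aborted chains, and entries described as elongation factor Tu, the factor that brings charged tRNAs to the ribosome). Of 16 such entries 13 were tested, 2 rose and none fell (none at an unadjusted p under 0.05 either, in limma with or without moderation), with a median of 0.11. The share of 15.4% stands beside 24.9% of all entries. LOC_Os04g55860, a peptidyl-tRNA hydrolase, was at 3.19, 3.43 and 2.82 FPKM in GLY, against 1.55, 1.20 and 1.80 FPKM in CK. The groups did not overlap, and the log2 fold change was 0.72 (SE 0.129, adjusted p = 0.0128). The other was LOC_Os01g02720 (0.35, adjusted p = 0.0439), which is described as elongation factor Tu but carries the KEGG orthology number of a peptide chain release factor, a factor that ends translation. Of the 8 entries with that description 3 carry this number and 2 that of elongation factor 2, which moves the ribosome along. LOC_Os02g38210, also described as elongation factor Tu, was at 569 FPKM in GLY1 and 678 FPKM in CK2 and is listed at 0 in the other 4 libraries. Of 5 further entries of the KEGG pathway of aminoacyl-tRNA synthesis 3 were tested and none passed (2 at an unadjusted p under 0.05, and none passed without moderation). The highest of them, LOC_Os03g44820, described as "glutamyl-tRNA", was at 11.96, 10.8 and 9.38 FPKM in GLY, against 6.23, 7.22 and 8.94 FPKM in CK (log2 fold change 0.47, adjusted p = 0.0742).

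A further 12 entries carry a synthetase description on a transcript but none at the gene, and fall outside the 51. Of these 1 rose, LOC_Os03g21740 of valine, at 2.49, 2.79 and 2.72 FPKM in GLY, against 1.38, 1.95 and 1.02 FPKM in CK (log2 fold change 0.60, adjusted p = 0.0420). LOC_Os01g09000 of glutamine fell, at 11.5, 10.7 and 11.9 FPKM in GLY, against 17.6, 16.6 and 14.5 FPKM in CK (-0.48, adjusted p = 0.0234). Neither overlapped between the groups. The 12 included 3 aromatic entries, none of which passed: LOC_Os05g48510 of the phenylalanine beta chain (0.17), LOC_Os10g26130 of phenylalanine (-0.12) and LOC_Os07g47860 of tyrosine (-0.25), the last 2 with all GLY libraries below all CK libraries. With these entries 0 of 8 aromatic genes passed in limma (1 at an unadjusted p under 0.05, and 0 passed without moderation), with a median of -0.05, and 12 of 49 others rose and 2 fell, with a median of 0.20.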

How the data were processed

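Leaf RNA of the 3 GLY and 3 CK libraries was freed of ribosomal RNA and sequenced from both ends. Mapping to the Nipponbare reference (IRGSP build 5.0 in the methods) was done by the authors with TopHat2 and Bowtie 2, and assembly with StringTie. They deposited FPKM from Ballgown for each gene and transcript. Per-base read coverage, a signal, was deposited for transcripts too, and its ratio to FPKM gave the depth to which a library was scaled. Strand was not stated, and coordinates are as deposited. There are no counts, so the spread of 3 libraries sets the precision.

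The test was limma 3.58.1 in R 4.3.3 (two-sided, moderated with a trend on the mean) on log2(FPKM + 1), for entries averaging at least 0.5 FPKM. P-values were adjusted by the Benjamini-Hochberg method over all 19316 entries or 32646 transcripts. The count model named in the paper was not used because FPKM are not counts. "Passed", "rose" and "fell" mean an adjusted p under 0.05. The fold threshold was an absolute log2 fold change of 1 with P under 0.05.

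Members, lists and tests were chosen with earlier results of these data known. The genes named are all aromatic ones, those past the fold threshold, the 8 largest changes among the passed in each direction, the 3 highest by level and those under the minimum. Others named, among them LOC_Os03g58820, LOC_Os07g30200 and the genes with 1 library apart, were picked with their values in view. Alternatives tried were another pseudocount (0.1), testing without a filter or from 1 FPKM, median-of-ratios factors, the library-size covariate of Ballgown, no moderation, the replicate block, each library left out, histidine counted with the aromatic amino acids and, added after seeing the data, the 12 entries described on a transcript only and the merged entry LOC_Os01g03030 left out.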

Additional observations from a re-analysis of the deposited data

How the results depend on the processing

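The counts of 11 genes that rose and 1 that fell stayed within 1.5 times with a pseudocount of 0.1, no filter (9 and 1) and a minimum of 1 FPKM. With median-of-ratios factors 3 rose and 7 fell, 4 of them shared with the 12 as reported. With the library-size covariate none rose or fell and 2 passed the fold threshold. The covariate fit was an ordinary linear model that also left out moderation, and its covariate has a correlation of 0.988 with the treatment. Without moderation as the single change 2 fell, and with the 12 entries described on a transcript only 2 fell. Libraries with the same number did not deviate together (correlations 0.003, 0.0099 and 0.006), and with the replicate block 2 genes rose and 1 fell, all 3 among the 12. Without 1 library the number that rose was 4 to 7, that fell 1 to 2 and that passed the fold threshold 0 to 2, with 5 to 8 of the 12 shared, in fits with fewer samples. LOC_Os02g53770, LOC_Os06g01400 and LOC_Os01g16520 passed in the same direction under 12 of 13 alternatives, the exception being the covariate. The median of the aromatic genes was -0.23 with median-of-ratios factors, -0.19 with the covariate, -0.053 with the 12 entries and -0.12 to 0.050 without 1 library. That of the others was -0.0062, -0.35, 0.20 and 0.20 to 0.26. Their difference of -0.24 was -0.18 without the filter, 0.16 with the covariate, -0.19 with histidine counted as aromatic and -0.35 to -0.21 without 1 library. The accessory genes that rose, 2 as reported, were 1 without the filter, 1 with median-of-ratios factors, 0 with the covariate, 0 with the replicate block and 1 to 2 without 1 library, where 0 to 1 fell. Direction was reversed for LOC_Os06g13660 with median-of-ratios factors (-0.0084) and for LOC_Os01g03030 (-1.20), LOC_Os06g13660 (-0.18) and LOC_Os07g09580 (-0.028) with the covariate. Among the aromatic genes, which did not pass, LOC_Os08g05490 (-0.21), LOC_Os12g35570 (-0.23) and LOC_Os08g23110 (-0.15) were below 0 with median-of-ratios factors, and with the covariate LOC_Os08g23110 was at 1.51 and LOC_Os12g34860 at -1.46. Without the merged entry LOC_Os01g03030 10 rose and 1 fell. The causes were not tested.

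The 6 genes under 0.5 FPKM were left out by the filter and entered only the fit without it. What depth and low expression each contributed to their level was not tested. The transcripts are limited too, since their FPKM are split between overlapping models. The main transcripts of the tested genes had a coverage of 3.45 to 187 reads per base, with a median of 22.3.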
